A study of Mus musculus with 6 samples.

Results

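The subject is the set of nuclear genes for the mitochondrial respiratory chain and the ATP synthase, measured in mouse pancreatic islets with and without Neurod1 in beta cells. Members were taken by symbol: names starting with Ndufa, Ndufb, Ndufc, Ndufs, Ndufv, Uqcr, Cox4 to Cox8 or Atp5, plus Cyc1 and Cycs, and without the assembly factors whose names start with Ndufaf. This gave 84 of the 23284 genes in the count files. Of these, 81 encode subunits, paralogs or tissue forms: 36 of complex I, 9 of complex III, 20 of complex IV, 15 of complex V (ATP synthase) and cytochrome c (Cycs). The other 3 match by name but encode no subunit (Cox4nb, Atp5sl and Atp5s). Subunits encoded by mitochondrial DNA were not analysed here.

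The respiratory chain passes electrons from NADH through complex I, or from succinate through complex II, to coenzyme Q, then through complex III and cytochrome c to oxygen at complex IV. Complexes I, III and IV pump protons, and complex V uses the proton gradient to make ATP. In beta cells the ATP made from glucose closes potassium channels and so sets off insulin secretion.

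Islets came from 12-week-old mice of the strain given as C56BL/J. Knockout mice were Neurod1-floxed/floxed and Rip-Cre+, with Cre recombinase under the rat insulin promoter (libraries 4, 5 and 6), and control mice were Neurod1-floxed/floxed with no Cre named (libraries 7, 10 and 16). An effect of Cre itself therefore cannot be told apart from the loss of Neurod1. The labels do not say whether the libraries are of different animals, so p-values measure only the spread between these samples, which may be technical. Neurod1, a transcription factor of endocrine cells, had 198, 177 and 140.5 CPM (counts per 1e+06 counts of the scaled library) in controls 7, 10 and 16 and 28.4, 29.7 and 31.2 CPM in knockouts 4, 5 and 6. Every knockout library lay below every control library (log2 fold change −2.53, SE 0.13, adjusted p = 1.74e-05).

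Libraries held 12206393 to 20412435 counts. The beta cell marker list summed to 174560 to 192810 CPM in controls and 132290 to 148950 CPM in knockouts, so the islet label had its markers in every library. Ins1, an insulin gene, accounted for the lower sum, with a mean of 48631 CPM in controls and 4304 CPM in knockouts. Of the 10 genes in the list, 3 passed as lower (Ins1, G6pc2 and Slc30a8) and 3 as higher (Slc2a2, Pdx1 and Nkx6-1). The other 4, Ins2 among them, did not pass. The alpha cell list summed to 37037 to 50187 CPM in controls and 26202 to 34879 CPM in knockouts, with 1 of its 6 genes lower by the test. Exocrine acinar markers summed to 57783, 48093 and 15856 CPM in controls 7, 10 and 16 and to 5524, 16706 and 11894 CPM in knockouts 4, 5 and 6. Control 16 thus lay within the knockout range for acinar RNA. Endothelial markers summed to 1008 to 1017 CPM in controls and 651 to 760.3 CPM in knockouts, and fibroblast and stellate markers to 873 to 1211 and 606 to 808 CPM. In bulk islets, fewer cells of a type and less RNA per cell cannot be told apart.

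Most subunit genes had higher levels in the knockout islets, by modest amounts. Of the 81, 78 had enough counts to be tested. In the test across all genes (edgeR quasi-likelihood F test, Benjamini-Hochberg adjusted p under 0.05), 30 rose, 1 fell (Ndufa4l2) and 47 did not pass. Among all 14770 genes tested, 11.8% were called higher and 12.6% lower, against 38.5% and 1.28% of the 78. The log2 fold change was positive in 66 and negative in 12, with a median of 0.23, against −0.0075 over all genes tested. All 3 knockout libraries lay above all 3 control libraries for 46 genes (59.0%) and below for 3, against 19.9% and 22.1% of all genes tested.

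**Figure D1:**
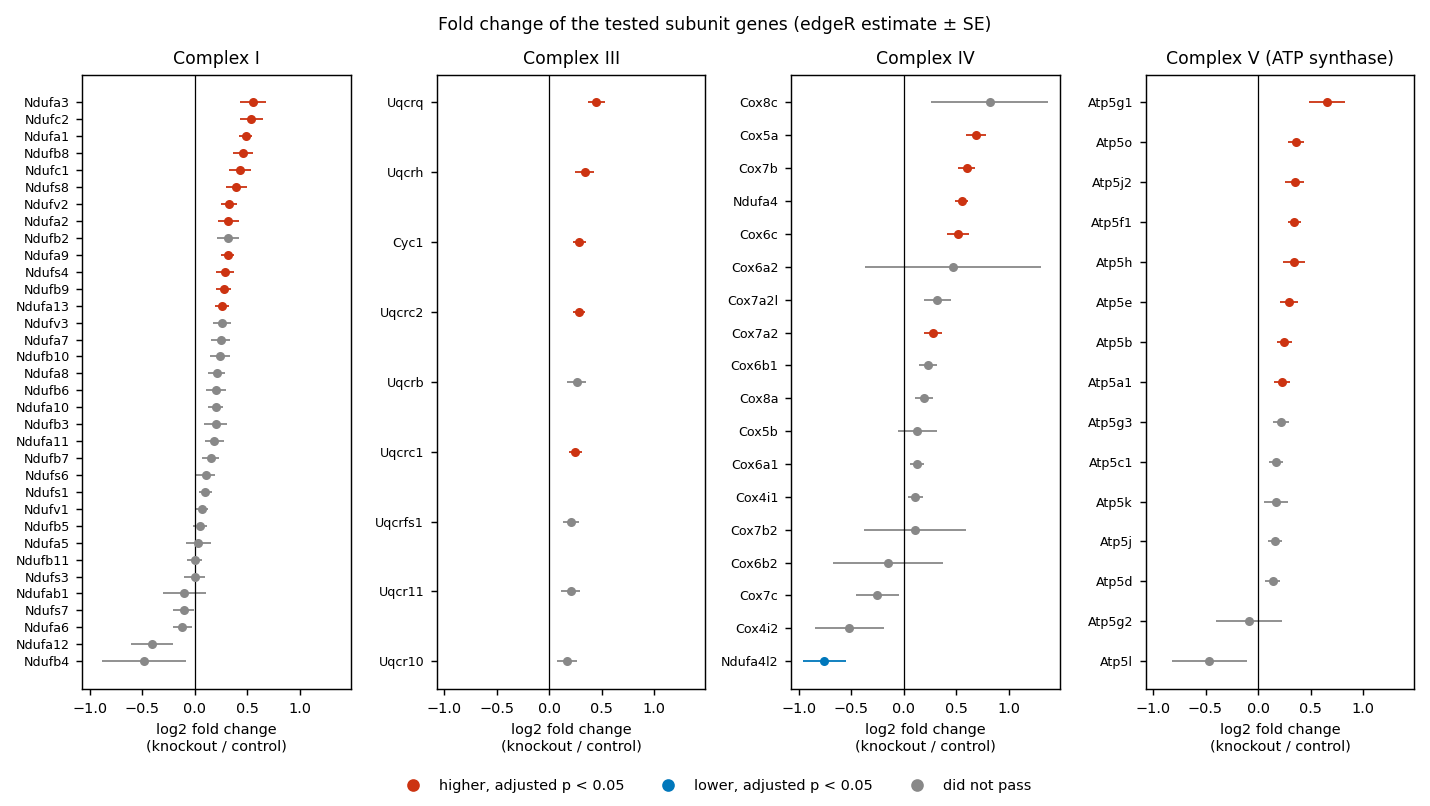
The log2 fold change, knockout over control, of the tested subunit genes (x axis) with its standard error, by complex; red points passed the test as higher, the blue point as lower, and grey points did not pass. Points lie mostly right of 0 in all 4 panels, and Ndufa4l2 is the 1 blue point.

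How many genes passed depended on single libraries and on the acinar marker level. Without control 10, 13 genes were called higher, without control 7, 16, without knockout 4, 18, and without control 16, 36. In the same fits, in this order, 7.75%, 8.84%, 10.1% and 9.29% of all genes were called higher. When the mean acinar marker level was added to the model, 4 genes stayed called higher (Ndufa1, Ndufa4, Cox5a and Cox7b), together with the call for Ndufa4l2: 1 in complex I, 0 in complex III, 3 in complex IV and 0 in complex V. With this term 55 of 78 fold changes were positive. The share of all genes called higher was then 5.36%, and 4 of 78 members was near that share. Of the 31 calls, 13 held without each of the 6 libraries in turn. The authors' deposited table calls 17 of the 84 genes higher and 1 lower, and all 18 were called in the same direction here.

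Other families of housekeeping genes give a scale for these shares. Of 75 tested mitochondrial ribosomal protein genes, 8 rose and none passed as lower (edgeR), with a median log2 fold change of 0.09. Of 38 tested proteasome subunit genes, 6 rose, with a median of 0.17. Of 88 tested cytosolic ribosomal protein genes, 2 rose and 2 fell, with a median of −0.06. The log2 fold change was positive in 53 of the 75, 33 of the 38 and 31 of the 88 genes. All knockout libraries lay above all controls for 21 (28.0%), 17 (44.7%) and 6 (6.82%) of them, so much of the proteasome list also moved up slightly. Among 565 other genes with transcripts of 554.5 to 1152 bases and a mean of at least 10 CPM, 82 (14.5%) rose and 36 (6.37%) fell, and the median was 0.05. The differences between these families were not tested.

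Summed over a complex, the level was higher in each knockout library than in each control library for all 4 complexes. The complex I sum was 1359, 1416 and 1498 CPM in controls 7, 10 and 16 and 1637, 1761 and 1615 CPM in knockouts 4, 5 and 6, a ratio of group means of 1.17. For complex III the sums were 489.6, 487 and 527 CPM against 613, 607 and 601 CPM (ratio 1.21). For complex IV they were 715, 727 and 809 CPM against 947, 938 and 912 CPM (ratio 1.24), and for complex V 1621, 1631 and 1711 CPM against 1976, 1978 and 1921 CPM (ratio 1.18). The ratios span a narrow range, and no test was made between complexes. Control 16 had the highest sum among controls in every complex, and it was also the control with the least acinar RNA; the part of acinar RNA in these sums was not tested.

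**Figure D2:**
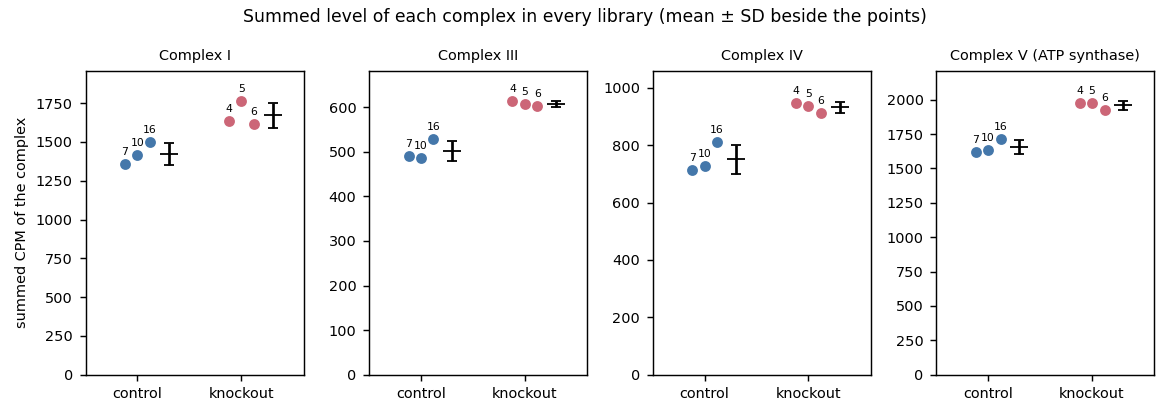
Summed CPM of the genes of each complex (y axis, from 0) in every library, with the mean and SD of each group beside the points and library numbers above them. The knockout points lie above the control points in each panel, and control 16 is the highest control.

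Complex I, the NADH dehydrogenase, had 12 of 35 tested genes higher and none passed as lower (median log2 fold change 0.21), and 21 had knockout libraries above all controls. By role, 2 of the 7 core subunits, which carry the flavin and iron-sulfur centres, and 10 of the 28 tested accessory subunits rose. Ndufa1, a small accessory subunit of the membrane arm encoded on the X chromosome, had 32.7, 31.5 and 33.4 CPM in controls 7, 10 and 16 and 45.8, 45.5 and 45.3 CPM in knockouts 4, 5 and 6. The groups were far apart beside their spread (log2 fold change 0.48, SE 0.07, adjusted p = 0.00133). Ndufa9, a subunit near the junction of the arms, had 47.8, 45.9 and 45.2 CPM in controls and 58.7, 58.1 and 56.2 CPM in knockouts, with no overlap (0.32, SE 0.06, adjusted p = 0.00768). For Ndufc2, an accessory subunit of the membrane arm, controls had 33.8, 39.0 and 43.8 CPM and knockouts 55.3, 62.4 and 51.3 CPM. The lowest knockout was above the highest control (0.54, SE 0.11, adjusted p = 0.00882). Ndufb8, another membrane-arm subunit, had 52.7, 56.2 and 65.5 CPM in controls and 78.9, 86.3 and 74.3 CPM in knockouts. Control 16 was the highest control for both Ndufc2 and Ndufb8, and the groups did not overlap (Ndufb8 0.46, SE 0.10, adjusted p = 0.0093). The other tested complex I genes ranged from −0.48 (Ndufb4) to 0.55 (Ndufa3). The count of 12 fell to 4 without control 10, to 7 without control 7 and to 7 without knockout 4.

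Complex III, cytochrome c reductase, had 5 of 9 genes higher and none lower by the test (median 0.26), and 8 of 9 had knockout libraries above all controls. Cyc1, the cytochrome c1 subunit that hands electrons to cytochrome c, had 53.7, 52.2 and 56.0 CPM in controls and 66.3, 65.7 and 65.5 CPM in knockouts. Both groups were tight and apart (log2 fold change 0.29, SE 0.06, adjusted p = 0.0107). The other catalytic subunit of the list, the Rieske iron-sulfur protein Uqcrfs1, did not pass (0.21, SE 0.08, adjusted p = 0.0793). Uqcrq, a small subunit of the complex, had 34.9, 31.9 and 37.4 CPM in controls and 49.1, 44.7 and 48.3 CPM in knockouts, with no overlap (0.45, SE 0.08, adjusted p = 0.00527). Uqcrc2, a core protein, had 127, 127 and 126 CPM in controls and 157, 155 and 151 CPM in knockouts, again apart (0.28, SE 0.06, adjusted p = 0.0096). Uqcrc1, the partner core protein, had 88.5, 90.1 and 93.5 CPM in controls and 102, 112 and 109.7 CPM in knockouts. Its groups did not overlap (0.25, SE 0.06, adjusted p = 0.0219), but the call was lost without knockout 5, knockout 6, control 7 or control 10 (highest adjusted p 0.0793). The count of 5 fell to 3 without control 7 and to 3 without control 10. Cycs, the carrier between complexes III and IV, had 1.81 to 2.61 CPM in controls and 1.93 to 3.28 CPM in knockouts, and did not pass (0.21, SE 0.29, adjusted p = 0.631).

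Complex IV is cytochrome c oxidase. Of its 11 main-form subunits 5 rose, and of its 7 tested tissue forms and paralogs 4 had a positive log2 fold change, none passed as higher and 1 fell. The difference between these forms was not tested, and the median over all 18 was 0.21. Of the 18, 6 had knockout libraries above all controls and 3 below. Cox5a, a subunit on the matrix side, had 29.1, 31.9 and 36.0 CPM in controls and 48.8, 54.2 and 53.1 CPM in knockouts. The groups were well apart, and its log2 fold change was the highest among the members called (0.69, SE 0.09, adjusted p = 0.00124). Cox7b, a small membrane subunit, had 41.9, 42.7 and 48.5 CPM in controls and 67.8, 70.0 and 63.7 CPM in knockouts, with no overlap (0.60, SE 0.08, adjusted p = 0.00112). Ndufa4, named as a complex I subunit and now assigned to complex IV, had 65.1, 67.9 and 72.3 CPM in controls and 102, 101 and 99.0 CPM in knockouts. The knockout values differed little from each other (0.55, SE 0.06, adjusted p = 0.00058). Cox6c, another small subunit, had 46.8, 55.1 and 61.0 CPM in controls and 77.9, 72.5 and 82.8 CPM in knockouts, also apart (0.52, SE 0.10, adjusted p = 0.0073). Counting Ndufa4 in complex I would give 13 genes higher there and 4 in complex IV. Without control 16, the count of 5 for complex IV was 8.

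Ndufa4l2, a hypoxia-induced paralog of Ndufa4, moved the other way. It had 7.28, 6.52 and 8.84 CPM in controls and 5.34, 3.68 and 4.33 CPM in knockouts. Every knockout library was below every control (log2 fold change −0.75, SE 0.20, adjusted p = 0.0259). The call was lost without knockout 5, knockout 6, control 7 or control 16 (highest adjusted p 0.0875). Ndufa4l2 is also a known pericyte gene, as is Cox4i2, a tissue form of Cox4i1 with 1.70, 1.32 and 1.65 CPM in controls and 1.29, 1.21 and 0.722 CPM in knockouts (log2 fold change −0.52, SE 0.33, adjusted p = 0.285). The pericyte and smooth muscle list summed to 395, 341 and 408 CPM in controls 7, 10 and 16. In knockouts 4, 5 and 6 the sums were 343, 289 and 273 CPM, and knockout 4 lay above control 10. Of the 12 genes in the list, 2 (16.7%) were lower and none higher by the test, against 12.6% and 11.8% of all genes tested. The part of pericytes in the Ndufa4l2 result was not tested.

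The muscle form Cox6a2 had 39.4 and 28.7 CPM in controls 7 and 10 but 2.81 CPM in control 16, and 37.4, 29.8 and 32.0 CPM in knockouts 4, 5 and 6. Control 16 alone stood apart, and the groups otherwise overlapped (log2 fold change 0.47, SE 0.84, adjusted p = 0.734, or −0.04 with adjusted p = 0.888 without control 16). Cox6a1, the general form, was at 83.0 CPM in control 16 and 73.7 to 86.9 CPM in the other libraries. Ordering all genes by their level in control 16 over the lowest of the other libraries, with 1 CPM added, Cox6a2 was the 5th from the bottom. Itgad, an integrin gene whose RefSeq span overlaps the end of Cox6a2, had 0.343 CPM in control 16 and 3.68 to 6.50 CPM elsewhere. Striated muscle markers summed to 1.72 to 3.72 CPM per library. The part of overlapping reads in the Cox6a2 values was not tested.

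The remaining tissue forms and paralogs did not pass. Cox7a2l, a paralog of Cox7a2 that joins complexes III and IV into supercomplexes, had 92.9, 94.2 and 119.8 CPM in controls and 125, 147 and 111 CPM in knockouts (log2 fold change 0.32, adjusted p = 0.114). Knockout 6 lay below control 16, so the groups overlapped, and without control 16 it was called higher (0.45, adjusted p = 0.0376). Cox8c, Cox6b2 and Cox7b2, known for their expression in testis, had at most 2.45 CPM in any library and log2 fold changes of 0.82, −0.15 and 0.11 (adjusted p = 0.317, 0.862 and 0.893). The Cox8c value rests on knockout 4, at 2.45 CPM against 0.670 and 0.803 CPM in knockouts 5 and 6, and was −0.018 without it. The muscle forms Cox7a1 and Cox8b had too few counts to be tested, with 5 to 9 counts per library for Cox7a1 and 1 count in all for Cox8b.

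**Figure D3:**
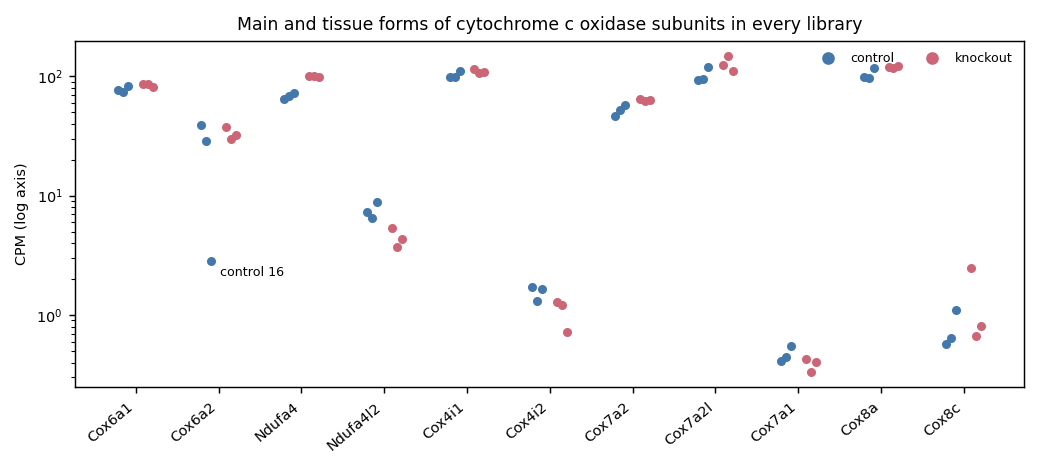
CPM (log axis) of main and tissue forms of cytochrome c oxidase subunits in every library, controls in blue and knockouts in red, each library a point in the order 7, 10, 16 and 4, 5, 6. The Cox6a2 point of control 16 lies at 2.81 CPM, far below the other 5, and the Ndufa4l2 points fall in the direction opposite to Ndufa4.

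Complex V, the ATP synthase, had 8 of 15 genes higher and none lower by the test (median 0.23), and 11 had knockout libraries above all controls. By position, 3 of 5 subunits of the catalytic F1 head, 1 of 3 genes for the c ring, 3 of 4 subunits of the peripheral stalk and 1 of 3 other membrane subunits rose. Atp5b, the catalytic beta subunit (chosen after its values were seen), had 498, 483 and 497 CPM in controls and 601, 589 and 568 CPM in knockouts, without overlap (log2 fold change 0.25, SE 0.07, adjusted p = 0.0365); its call was lost in all leave-one-out fits but the one without knockout 6 (highest adjusted p 0.128). Atp5f1, the b subunit of the stalk, had 86.0, 88.8 and 92.6 CPM in controls and 110.4, 118 and 112 CPM in knockouts. The groups were apart (0.35, SE 0.06, adjusted p = 0.00495). Atp5o, the stalk subunit that binds the F1 head, had 41.1, 39.7 and 45.0 CPM in controls and 53.9, 56.3 and 51.8 CPM in knockouts, with no overlap (0.36, SE 0.07, adjusted p = 0.00868). Atp5j2, the f subunit in the membrane, had 29.6, 32.6 and 34.8 CPM in controls and 44.2, 39.6 and 39.5 CPM in knockouts. Knockout 4 was the highest library (0.35, SE 0.09, adjusted p = 0.0204), and the call was lost without it or without control 7 or control 10 (highest adjusted p 0.0639).

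The c subunit that forms the rotating ring is made from 3 genes whose mature proteins are the same. Atp5g1 had 11.7, 9.95 and 15.2 CPM in controls and 20.0, 21.6 and 16.1 CPM in knockouts. Control 16 and knockout 6 were close (log2 fold change 0.66, SE 0.17, adjusted p = 0.0243). The call was lost without knockout 4, knockout 5, control 7 or control 10 (highest adjusted p 0.0793). Atp5g3, the highest of them in CPM, had 99.2, 101 and 115 CPM in controls and 122, 127 and 119 CPM in knockouts, apart but not past the threshold (0.22, SE 0.07, adjusted p = 0.0628); it passed in DESeq2 (adjusted p = 0.0465) and without control 16 (0.0254). Atp5g2 was counted at 1.03 to 1.70 CPM in controls and 1.20 to 1.54 CPM in knockouts (−0.09, SE 0.31, adjusted p = 0.869) and every window of its transcript is also found in another gene, as described with the copies. The complex V count of 8 fell to 2 without control 7, to 2 without control 10, to 3 without knockout 4 and to 3 without knockout 5.

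**Figure D4:**
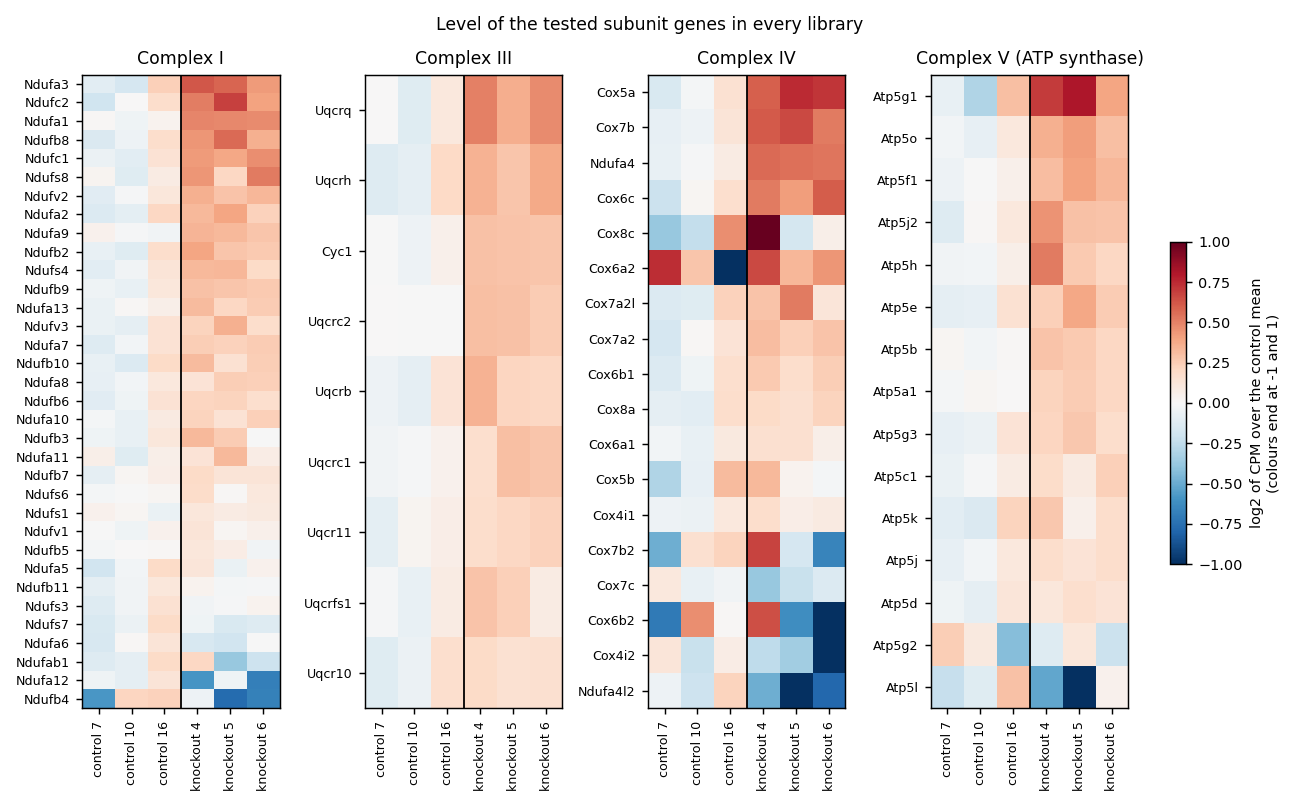
Level of the tested subunit genes in each library as log2 of CPM over the mean of the controls, with controls left of the black line and knockouts right of it; colours end at −1 and 1. By the median over genes, complexes I, III and V show an even shift over the 3 knockouts. Genes at the foot of the panels for complexes I, IV and V vary between replicates.

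Levels can be compared between genes only per length of transcript. On the scale of control CPM per kilobase, with transcript lengths from GENCODE M21, the F1 subunits Atp5b (257 ± 4.46, SD, n = 3) and Atp5a1 (209.7 ± 3.24) were the highest of the members, followed by Cox8a (189.6 ± 21.6), a small complex IV subunit, and Atp5e (153 ± 15.2), another F1 subunit.

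Many of these genes share sequence with another gene, in part with processed copies, and reads from a stretch identical in a copy elsewhere cannot be placed by sequence. For each member, the share of its 100-base windows found in a transcript of another gene with at most 2 mismatches was computed in GENCODE M21. Any other gene on either strand counted, so genes that overlap a member in place are included beside copies. A window with mismatches may still be told apart. By mean CPM, which is not a level per length, the 10 lowest subunit genes outside the tissue forms were Ndufs5, Ndufb4, Atp5g2, Atp5l, Cycs, Cox7c, Ndufab1, Ndufa12, Cox5b and Atp5g1, and each shared 28.2% to 100.0% of its windows with another gene. For Atp5g2 it was 100.0%. The next genes in this order, Ndufs6 and Ndufc1, shared 17.1% and 3.91%. Members with higher CPM could also share many windows, as Ndufs3 (61.6%), Uqcrb (54.4%) and Atp5f1 (43.0%) did. Ndufs5, an accessory subunit of complex I, had 0 counts in all 6 libraries, which allows up to 3 counts per library (counting error only). BC002163, annotated as a processed pseudogene and the gene that shares these windows of Ndufs5 (51.6%), had 597, 688 and 561 counts in controls 7, 10 and 16 and 697, 611 and 483 counts in knockouts 4, 5 and 6 (log2 fold change 0.25, adjusted p = 0.0822). The first 60 coding bases of Ndufs5 (chromosome 4) and the matching stretch of BC002163 (chromosome 16) have 0 mismatches, whereas Atp5l (chromosome 9), the g subunit of the ATP synthase, and Atp5l-ps1 (chromosome 7) have 2, given in capitals. The stretches are shown from 5′ to 3′ because they are what a read of Ndufs5 or Atp5l would have to tell apart.
Ndufs5: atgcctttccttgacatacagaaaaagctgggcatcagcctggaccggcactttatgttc
BC002163: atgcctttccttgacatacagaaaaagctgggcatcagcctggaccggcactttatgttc
Atp5l: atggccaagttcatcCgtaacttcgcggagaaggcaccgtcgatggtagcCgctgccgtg
Atp5l-ps1: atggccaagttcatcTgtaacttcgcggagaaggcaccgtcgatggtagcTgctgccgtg

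Cox7c, a complex IV subunit, also has 0 mismatches in its first 60 coding bases to a copy, Gm10012, but there the copy had 0 to 2 counts per library and Cox7c itself 2.64 to 3.72 CPM. The treatment of reads with several matches is not named in the labels, and its part in these low values was not tested. Of the 18 members that shared at least 25% of their windows, 17 were tested and 5 (29.4%) rose, with a median log2 fold change of 0.13. Of the other 63, 61 were tested, 25 rose and 1 fell, with a median of 0.25. Without the sharing members, 4 genes of complex V rose in place of 8, among them none of Atp5f1, Atp5o, Atp5h and Atp5g1, which share windows. The 25% limit was chosen after the data were seen, and the split does not separate copies from overlapping genes.

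**Figure D5:**
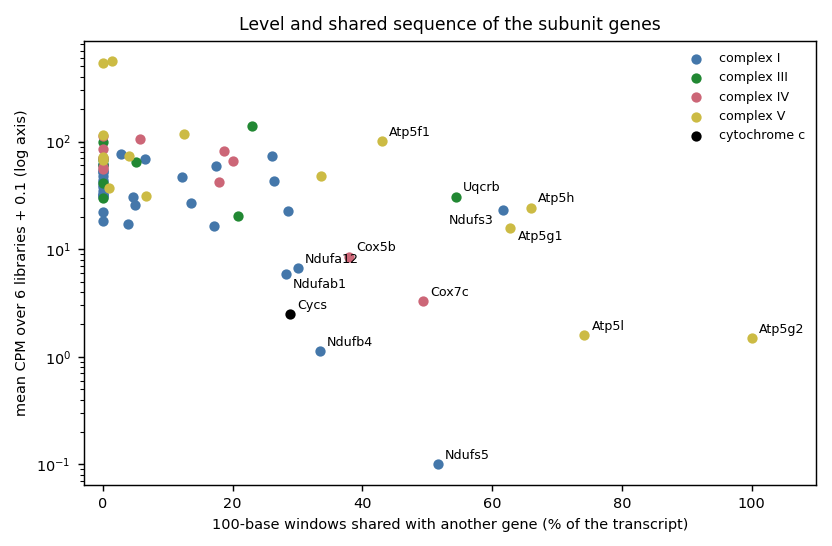
Mean CPM over the 6 libraries (log axis, 0.1 added) against the share of 100-base windows found in another gene, for the subunit genes outside the tissue forms, coloured by complex. The genes under 10 CPM each share 28.2% or more, and Ndufs5 lies at 0 counts.

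Nuclear respiratory factor 1 (NRF1) and ETS factors are known activators of subunit genes, and Neurod1 binds E-boxes, so promoter windows from RefSeq (GRCm38.p6, 250 bases before to 50 after the start) were searched on both strands. A window was present for 66 of the 81 members. The letters CGCANGCG (NRF1 type) were in 38.0% of 71 member windows and 11.1% of 21263 windows of coding genes. CCGGAAG (ETS type) was in 19.7% against 11.6%, CCAAT in 40.8% against 38.2% and CAGATG (E-box) in 11.3% against 14.6%. CGCANGCG was in 60.0% of the 5 complex III windows, 58.8% of the 17 complex V windows, 35.3% of the 34 complex I windows and 7.14% of the 14 complex IV windows. Among tested members with these letters 3 of 23 rose (median log2 fold change 0.17), and among those without 20 of 40 rose (median 0.27). This split was seen after the calls were known and was not tested. A match is only a match of letters, and E-boxes with letters other than CAGATG were not searched or marked. CGCATGCG reads the same on both strands and was counted once, and the 4 motifs hold none of each other's letters in full.

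Promoters of 3 members, chosen after their values were seen, are shown because they differ in these letters: Ndufa4, which rose and has none of the 4, Uqcrc1, which rose and has 2 NRF1-type and 2 E-box matches, and Atp5g3, which did not pass and has 1 NRF1-type match and 1 CCAAT. They are chr6:11907401-11907700 on the minus strand, chr9:108936398-108936697 on the plus strand and chr2:73911277-73911576 on the minus strand. Each runs 5′ to 3′ along its gene, and capitals mark the matches.
Ndufa4: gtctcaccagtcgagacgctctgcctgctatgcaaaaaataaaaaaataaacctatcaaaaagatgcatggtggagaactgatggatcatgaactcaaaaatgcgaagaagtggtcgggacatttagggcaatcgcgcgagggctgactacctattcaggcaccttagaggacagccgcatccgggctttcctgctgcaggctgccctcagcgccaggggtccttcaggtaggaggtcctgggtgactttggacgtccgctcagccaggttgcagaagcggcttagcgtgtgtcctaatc
Uqcrc1: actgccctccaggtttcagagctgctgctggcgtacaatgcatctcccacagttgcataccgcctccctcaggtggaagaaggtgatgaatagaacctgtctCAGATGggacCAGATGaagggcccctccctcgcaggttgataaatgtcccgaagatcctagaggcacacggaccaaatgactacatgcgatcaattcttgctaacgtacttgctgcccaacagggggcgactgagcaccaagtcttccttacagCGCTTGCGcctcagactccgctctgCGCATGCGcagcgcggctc
Atp5g3: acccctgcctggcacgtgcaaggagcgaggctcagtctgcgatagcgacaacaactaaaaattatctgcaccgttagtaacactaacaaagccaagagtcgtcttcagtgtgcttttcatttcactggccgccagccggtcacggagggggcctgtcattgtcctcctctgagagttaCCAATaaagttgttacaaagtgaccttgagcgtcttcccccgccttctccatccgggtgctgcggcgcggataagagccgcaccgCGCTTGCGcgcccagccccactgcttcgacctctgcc

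Of 59 tested genes in 7 lists of genes that work with the complexes, 8 (13.6%) rose and 2 (3.39%) fell, against 11.8% and 12.6% of all genes tested. The count of 8 became 5 without knockout 4, 4 without knockout 5 and 3 without control 10. Of all genes, 10.1%, 8.38% and 7.75% were called higher in these fits. In complex II, succinate dehydrogenase, 3 of 4 genes rose (edgeR): Sdhd, a membrane anchor, had 85.0, 95.1 and 102 CPM in controls and 122, 137 and 118 CPM in knockouts (log2 fold change 0.42, SE 0.09, adjusted p = 0.0101). Sdhc, the other anchor (0.41, adjusted p = 0.0200), and Sdhb, the iron-sulfur subunit (0.21, adjusted p = 0.0305), rose too, while Sdha, the flavin subunit, did not pass (0.02, adjusted p = 0.856). The calls for Sdhb (without any single library, highest adjusted p 0.094) and Sdhc (without knockout 4 or control 10, highest 0.0783) did not hold in each leave-one-out fit.

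Among assembly factors, none of 9 tested genes of complex I assembly passed, the highest in CPM being Acad9 (−0.10, adjusted p = 0.384). Of 4 tested for complex III, 2 rose. Uqcc, needed to make the cytochrome b subunit, had 38.8, 38.4 and 37.2 CPM in controls and 58.5, 57.7 and 54.8 CPM in knockouts (log2 fold change 0.58, SE 0.06, adjusted p = 0.00048), far apart. It was the 1 gene of these lists still called higher with the acinar level in the model (adjusted p = 0.018); the other 7 lost their call there (adjusted p 0.131 to 0.517, with Sdhd at 0.183 and Atpif1 at 0.205), as did Polg, called lower (0.359). Ttc19 rose by less (0.34, adjusted p = 0.0373) and was lost in every leave-one-out fit but the one without knockout 6 (highest adjusted p 0.124). Of 11 tested for complex IV, Cox16 rose (0.36, adjusted p = 0.0208; lost without knockout 4, knockout 5, control 10 or control 16, highest 0.0686) and Lrpprc fell. Lrpprc, which stabilises mitochondrial mRNAs, had 90.6, 87.7 and 85.3 CPM in controls and 66.0, 58.0 and 64.1 CPM in knockouts, with no overlap (−0.49, SE 0.07, adjusted p = 0.00181). Of 4 genes for assembly or inhibition of ATP synthase, Atpif1, the inhibitor protein of its hydrolysis, rose from 55.1, 59.0 and 68.7 CPM in controls to 84.8, 87.2 and 79.5 CPM in knockouts (0.46, SE 0.09, adjusted p = 0.00683).

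Of 12 coenzyme Q genes, 1 rose, Coq10b (log2 fold change 0.54, adjusted p = 0.0157; lost without knockout 5 or control 10, highest 0.0635). Of 15 tested regulators of respiratory genes none passed as higher and 1 passed as lower. That was Polg, the mitochondrial DNA polymerase, with 47.0, 43.2 and 43.4 CPM in controls and 36.1, 37.6 and 38.0 CPM in knockouts (−0.26, SE 0.07, adjusted p = 0.0276). Its call did not hold in DESeq2 (adjusted p = 0.0803) or in any leave-one-out fit but the one without control 16 (highest 0.116). Nrf1, the factor whose motif was searched, had 23.5 to 24.5 CPM in controls and 23.6 to 24.4 CPM in knockouts (0.02, SE 0.08, adjusted p = 0.908). Ppargc1a, a coactivator of mitochondrial genes, had 1.96, 2.74 and 3.29 CPM in controls and 1.41, 2.08 and 1.20 CPM in knockouts, overlapping and not past the threshold (−0.75, SE 0.32, adjusted p = 0.121). Nrf1 and Ppargc1a are named beyond the rule, after their values were seen. The name matches that are no subunit, Cox4nb, Atp5sl and Atp5s, did not pass (log2 fold changes −0.22, 0.02 and 0.17; adjusted p = 0.0723, 0.895 and 0.387).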

How the data were processed

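For each of the 6 libraries the deposited values are raw counts by gene symbol. The authors also deposited a table of their own comparison with the log2 value and p-values of each gene, used only where named. TopHat2 2.1.0, Cufflinks 2.0.2, DESeq and bcl2fastq 1.8.4 were named with build mm9, per the submitters' processing notes. The read counter, annotation and strand setting were not given in the sources used here, which leaves overlapping genes and near copies uncertain.

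Counts were compared in R 4.3.3 with edgeR 4.0.16: filterByExpr (minimum count 10; 14770 of 23284 genes kept), TMM factors (0.988 to 1.021), robust quasi-likelihood F test over all 6 libraries, Benjamini-Hochberg adjustment over all genes and a threshold of 0.05. CPM are counts per 1e+06 of the TMM-scaled library size. The biological coefficient of variation was 14.2%. Alternatives used DESeq2 1.42.0, limma 3.58.1 (voom), other scalings, no filter, the acinar marker level as a covariate and each library left out. The fit was tested on simulated data.

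The members, lists and tests were chosen with earlier results of these data known. The text names Neurod1; per complex up to 4 members per direction with the smallest p past the threshold; Cycs; tissue forms; c ring genes; name matches that are no subunit; and up to 3 members per direction of each pathway list, or the highest in CPM. Other genes named were chosen after their values were seen. Of the pathway lists, 16 symbols were not matched in the files. The groups share no replicate number. 1 member is counted in the totals but not reported or drawn here.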

Additional observations from a re-analysis of the deposited data

How the results depend on the processing

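All 31 calls for the members were also made with RLE factors, with TMM factors computed without insulin genes, Gcg, Rn45s and acinar markers, in DESeq2, in limma-voom and with no filter on low counts. With no filter 36 members were called higher, and 31 under each of the other settings just named. Of the 31 calls, 26 held with upper-quartile factors and 28 of 31 without robust estimation. The median over all genes tested lay between −0.038 and 0.027 under these scalings. The acinar covariate had the largest effect of the settings run that keep all libraries. With it, 4 of 78 tested members were higher (1, 0, 3 and 0 in complexes I, III, IV and V), near the 5.36% of all genes. In that fit 1 pathway gene was higher. The median log2 fold changes of complexes I, III, IV and V were 0.089, 0.16, 0.0097 and 0.14. The cause of these changes was not tested. The covariate and genotype are partly confounded, since the acinar sums of the groups barely overlap.

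Medians of complexes I, III and V were 0.18, 0.23 and 0.20 with upper-quartile factors and 0.24, 0.30 and 0.26 with no filter on low counts. The ratio of summed CPM was 1.22 for complex III with RLE factors, and 1.19, 1.22 and 1.16 for complexes III, IV and V with upper-quartile factors. With DESeq2 and with no filter on low counts, 1 pathway gene was lower. Without members that share windows with another gene, 4 complex V members were higher and the complex I median was 0.25.

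With each library left out in turn, the members higher ranged from 13 to 36 and those lower from 0 to 1. The share of all genes called higher ranged from 7.75% to 10.6% in these fits, against 11.8% with all libraries. Higher members ranged from 4 to 16 in complex I, 3 to 6 in complex III, 4 to 8 in complex IV and 2 to 6 in complex V; lower members ranged from 0 to 1 in complexes I and IV. Pathway genes ranged from 3 to 7 higher and 1 to 2 lower. Medians ranged from 0.18 to 0.27 (complex I), 0.24 to 0.30 (III), 0.17 to 0.30 (IV) and 0.23 to 0.29 (V). Ratios of summed CPM ranged from 1.14 to 1.20 (I), 1.19 to 1.24 (III), 1.21 to 1.29 (IV) and 1.17 to 1.20 (V). No direction reversed among these results. No paired analysis was possible because the groups share no replicate number. No member with a log2 fold change between −0.2 and 0.2 was called, which does not show that those genes did not differ.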

Other observations

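Subunits of the ATP synthase are also listed under symbols outside the rule. Usmg5, a small membrane subunit, had 7.17, 7.60 and 7.34 CPM in controls 7, 10 and 16 and 10.4, 11.7 and 8.91 CPM in knockouts 4, 5 and 6, with no overlap (log2 fold change 0.49, SE 0.14, edgeR adjusted p = 0.0351). 2010107E04Rik, another small membrane subunit, had 23.4 to 28.9 CPM in controls and 26.1 to 28.7 CPM in knockouts, which overlapped (log2 fold change 0.01, SE 0.10, edgeR adjusted p = 0.891). Both were chosen after the members' values were seen.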
